A study of Rattus norvegicus with 4 samples.

Results

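Nuclei of the rat infarct zone that carried RNA of dividing cells were picked out from single-nucleus RNA sequencing of Sprague Dawley hearts. A nucleus was called cycling when it held at least 3 unique molecular identifiers (UMIs, each standing for 1 captured RNA molecule) summed over Mki67, Top2a, Cenpf, Kif11, Aspm and Cenpe, from at least 2 of these genes, with the sum making up at least 0.15% of its UMIs. Of 46590 nuclei with at least 500 UMIs, at least 300 genes and at most 10% mitochondrially encoded UMIs, 1695 met the rule, from 48637 barcodes in all. The study holds 4 samples with 1 library each: a sham sample and 3 samples after myocardial infarction (MI) named for 1, 6 and 24 h, hours that the treatment labels assign to reperfusion and the design text to coronary ligation. The labels give the strain and the tissue for all 4 samples but no genotype, age, sex or number of animals. Barcodes end in a suffix of 1 to 4, and nothing links a suffix to a sample, so the libraries are called 1 to 4 and no sham or time comparison was made. Since each sample is 1 library, no difference below is checked by replicates and none carries a p-value. Intervals in parentheses are at 95% and reflect the counting of UMIs or nuclei alone.

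A cell that divides first leaves rest through D-type cyclins, copies its DNA with the MCM helicase, polymerases and the sliding clamp PCNA in S phase, and then builds up mitotic cyclins, the kinases CDK1, PLK1 and the Aurora kinases, kinetochore proteins and spindle motors before it splits in cytokinesis. The 6 genes of the rule belong to the later steps: Mki67 coats mitotic chromosomes, Top2a untangles DNA, Cenpf and Cenpe work at kinetochores, Kif11 pushes spindle poles apart and Aspm focuses them. In injured hearts fibroblasts, macrophages and vessel cells are known to divide, whereas adult cardiomyocytes seldom do. Adult cardiomyocyte nuclei therefore served as a measure of the background of the rule.

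The 6 genes chose the members, so their levels are given only as a description. In counts per 1000000 UMIs (CPM), the 1695 nuclei held 577 CPM of Mki67, 790 of Top2a, 477 of Cenpf, 309 of Kif11, 172 of Aspm and 380 of Cenpe, against 79.7, 70.0, 31.2, 27.3, 14.0 and 30.6 CPM in all other nuclei. Top2a was seen in 86.7% of cycling nuclei and Aspm in 42.7%. All 6 genes were seen together in 315 nuclei and only 2 of them in 240. Values near the limit ran on without a gap. The 387 nuclei with a marker share of 0.12 to 0.15% held 1041 CPM of mitotic kinesins, and the 320 nuclei with 0.15 to 0.18% held 1128 CPM. A single marker UMI means little here, since 2.91, 19.3, 56.8 and 32.2% of nuclei in libraries 1 to 4 held at least 1. A further 1942 nuclei had 3 or more marker UMIs from 2 or more genes but a share under the limit, at a median of 6482 UMIs.

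Library 3 held most of the cycling nuclei. The rule was met by 38 of 9013 nuclei in library 1 (0.422%, 0.299 to 0.578%), by 101 of 14603 in library 2 (0.692%, 0.564 to 0.840%), by 1353 of 16453 in library 3 (8.22%, 7.81 to 8.65%) and by 203 of 6521 in library 4 (3.11%, 2.71 to 3.56%). These shares depend on depth, because a nucleus with few UMIs seldom reaches 3 marker UMIs. Cycling nuclei had medians of 1780, 2457, 3328 and 3813 UMIs in libraries 1 to 4, against 1365, 608, 1977 and 2316 in the others. When each nucleus was thinned to 1000 UMIs, leaving out 3055, 11880, 1480 and 1083 shallower ones, and 2 marker UMIs from 2 genes were asked, the shares were 0.537% (0.368 to 0.757%), 4.19% (3.47 to 5.01%), 9.78% (9.31 to 10.3%) and 3.86% (3.37 to 4.41%). Without thinning, the same nuclei met that rule in 0.822, 10.8, 26.7 and 14.1%. Library 3 stayed highest and library 1 lowest at matched depth, while libraries 2 and 4 had overlapping intervals and cannot be ordered. No barcode sequence was shared by cycling nuclei of different libraries. Sharing between a cycling nucleus and a non-cycling one was not counted. Among all 46590 nuclei past the filters, a far larger set, 241 sequences were shared.

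Nuclei that carried cardiomyocyte markers gave 1 measure of the background rate, on the untested assumption that they do not cycle. Nuclei with 2 neutrophil markers, described at the end, gave higher shares, 6.12% in library 3 and 5.085% in library 4. Among 4502 nuclei with at least 4 of 5 cardiomyocyte markers and at least 1% of their UMIs in them, 11 met the rule (0.244%, 0.122 to 0.437%), at a median depth of 2884 UMIs, beside 3276 UMIs in the cycling nuclei. By library the shares were 0.0684, 0.3503, 1.28 and 0%, where 0 of 458 nuclei in library 4 allows a share of up to 0.655% by a floor of 3 counts, with an exact upper bound of 0.802%. The library 1 share of 0.422% thus lay above its own cardiomyocyte share of 0.0684% (0.00828 to 0.247%), and the library 2 share of 0.692% lay within the interval of 0.0425 to 1.26% around its cardiomyocyte share, whose nuclei had a median of 1000 UMIs. These cardiomyocyte-marked nuclei, and the other marker-picked sets below, were defined after the data had been seen.

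Fibroblast-classed nuclei made up most of the cycling set. Nuclei were classed by the largest UMI sum among Pdgfra, Col5a1 and Bicc1 for fibroblasts, Mertk, Mrc1 and Csf1r for macrophages, Cdh5, Ptprb and Flt1 for endothelium, and Rgs5, Pdgfrb and Abcc9 for mural cells, the pericytes and smooth muscle around vessels. Of the 1695 cycling nuclei, 1033 were classed fibroblast (60.9%, 58.6 to 63.3%), 241 macrophage (14.2%, 12.6 to 15.97%), 164 endothelial (9.68%, 8.31 to 11.2%) and 78 mural (4.60%, 3.65 to 5.71%). The remaining 179 (10.6%) had tied sums or none. Fibroblast-classed nuclei were 22.4% of all nuclei, so they were over-represented among the cycling ones, and endothelial-classed nuclei, at 23.9% of all, were under-represented.

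Within a class, the fibroblast share stood apart in library 3. There 849 of 4150 fibroblast-classed nuclei cycled (20.5%, 19.2 to 21.7%), against 4.31% (3.76 to 4.91%) of the macrophage, 2.87% (2.33 to 3.49%) of the endothelial and 4.16% (3.07 to 5.49%) of the mural class. Library 4 had the same leader at lower levels, with 104 of 1127 fibroblast-classed nuclei (9.23%, 7.60 to 11.07%) and 1.92, 1.76 and 2.25% in the macrophage, endothelial and mural classes. In library 2 the fibroblast share was 2.21% (1.72 to 2.79%), and only 1 of 753 macrophage-classed nuclei cycled. Library 1 differed in its leading class. Of its 218 macrophage-classed nuclei 9 cycled (4.13%, 1.91 to 7.69%), against 12 of 2089 fibroblast-classed (0.574%, 0.297 to 1.00%), 6 of 2133 endothelial-classed and 5 of 3226 mural-classed nuclei. The mural class took 35.8% of all library 1 nuclei. Over all libraries its non-cycling nuclei held 15057 CPM of cardiomyocyte markers and 2176 CPM of mural markers. The mural shares are thus those of a mixed class, and the part of cardiomyocyte-like nuclei in them was not tested. The classes differed in depth. Non-cycling macrophage-classed nuclei of library 3 had a median of 1779 UMIs and fibroblast-classed ones 2907. At a matched 1000 UMIs the fibroblast share was still the highest in libraries 2, 3 and 4, at 8.92% (7.10 to 11.03%), 19.6% (18.4 to 20.9%) and 9.95% (8.18 to 12.0%), and the macrophage share of library 1 was 6.90% from 6 nuclei (2.57 to 14.4%).

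**Figure D1:**
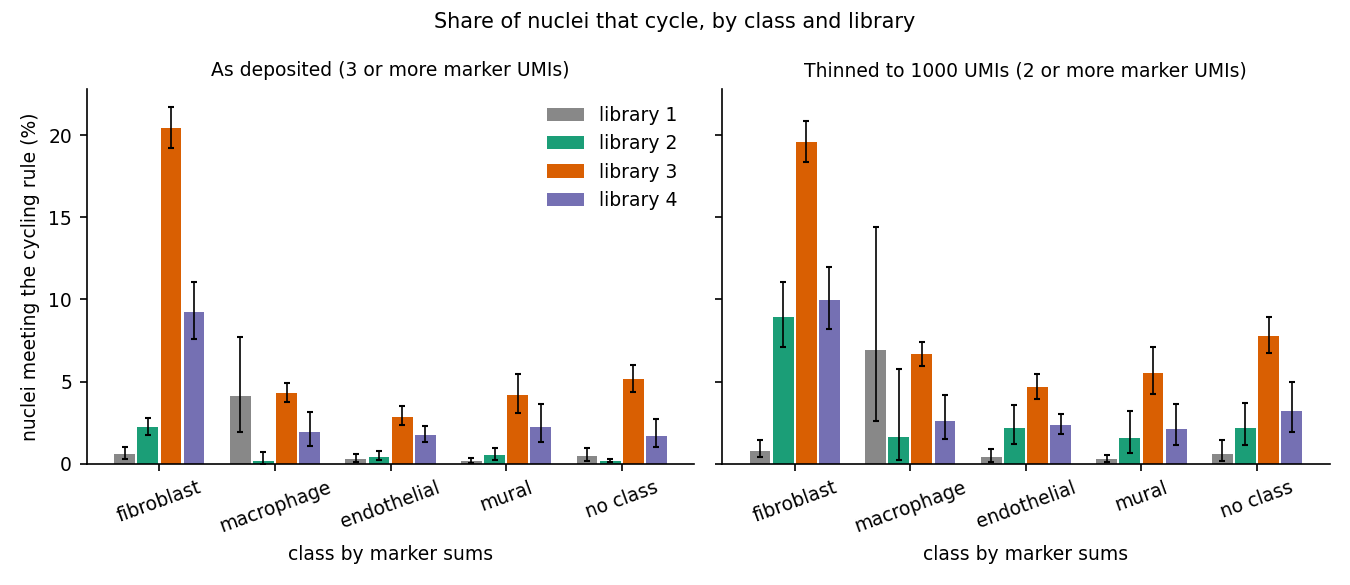
Share of nuclei in each class that met the cycling rule (percent, vertical axis) for libraries 1 to 4, with 95% Clopper-Pearson intervals as error bars; the left panel uses the counts as deposited and the right panel nuclei thinned to 1000 UMIs. The fibroblast bar of library 3 is the tallest in both panels, at 20.5 and 19.6%, and the library 2 fibroblast bar moves from 2.21 to 8.92%. Mural-classed nuclei also held cardiomyocyte markers.

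The class names were checked on markers that did not set them. Cycling fibroblast-classed nuclei held 610 CPM of Dcn, a collagen-binding proteoglycan, against 422, 315 and 513 CPM in cycling macrophage-, endothelial- and mural-classed nuclei. The laminin gene Lama2 ran the same way, at 1104 CPM against 363, 345 and 839, but the collagen gene Col1a2 was higher in the mural class, at 25.1 against 14.8 CPM in the fibroblast class. Cycling macrophage-classed nuclei held 201 CPM of the scavenger receptor Cd163, against at most 57.4 in the other classes, and cycling endothelial-classed nuclei 319 CPM of the sialomucin Emcn, against at most 39.7. The mural class was mixed. Its cycling nuclei held 183 CPM of the pericyte receptor Notch3 but also 2238 CPM over the 6 fibroblast markers, more than their 2055 CPM over the 6 mural markers, so they are called mural-classed and not mural. The other mural-classed nuclei held 2670 and 2176 CPM. Lama2 made up 2194 of those 2670 CPM, against 839 CPM in the cycling nuclei. Each other fibroblast marker was higher in the cycling nuclei. Pdgfra stood at 287 against 49.9 CPM, Col5a1 at 215 against 61.6 and Bicc1 at 359 against 151. Dcn stood at 513 against 206 CPM and Col1a2 at 25.1 against 8.09. In the macrophage and endothelial classes Pdgfra, Col5a1 and Bicc1 were also higher in cycling nuclei, while Lama2 and Col1a2 were lower. Pdgfra stood at 159 against 94.8 CPM in the macrophage and 143 against 79.1 CPM in the endothelial class. Bicc1 stood at 147 against 110 and 344 against 231 CPM, so these 2 classes were not free of fibroblast RNA either. The other mural-classed nuclei also held 15057 CPM of cardiomyocyte markers, against 2357 CPM in the cycling ones. Cardiomyocyte markers were also lower in cycling than in other nuclei of the fibroblast (936 and 2541 CPM), macrophage (1369 and 2171 CPM) and endothelial classes (940 and 2430 CPM), and their part in the lower genes below was not tested. In 1168 of 1695 cycling nuclei the leading class sum held at least 2 UMIs and at least 2 times the next, and 761 held UMIs in 3 or more of the class sums.

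The remaining results compare the UMIs of a gene in cycling nuclei with the UMIs expected from other nuclei of the same class and library at the same total. This evens out the shares of the 4 classes. It does not even out mixture within a class, such as the cardiomyocyte markers above. Of 14258 genes with at least 100 UMIs, 273 were 2-fold or more higher in cycling nuclei, a background of 1.91%, and 604 were 2-fold or more lower (4.24%). Without library 3, which holds most cycling nuclei, these counts were 621 and 1379. The median ratio over all genes was 0.984. Against that background, 105 of 172 compared genes in 7 cell cycle lists were 2-fold or more higher and 0 were 2-fold or more lower. All 172 had at least 100 UMIs in the other nuclei alone, as did 258 of the 273 higher genes. The other nuclei also held RNA of these lists. Fibroblast-classed nuclei of library 3 that missed the rule already held 8297 CPM of these 7 lists, against 18811 CPM in those that met it, and the ratio over the 7 lists was lowest there among the 9 pairs of class and library with at least 15 cycling nuclei, at 2.27 (2.25 to 2.29).

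In the list of spindle and cytokinesis genes 27 of 29 compared genes were 2-fold or more higher, with a median ratio of 4.34. Nusap1, which bundles spindle microtubules near chromosomes, stood at 482, 272, 315 and 355 CPM in cycling nuclei across libraries 1 to 4, beside 7.60, 30.4, 44.0 and 21.1 CPM in the other nuclei. Each of the 4 values in cycling nuclei lay above all 4 in the other nuclei, and the pooled ratio was 8.03 (7.46 to 8.65). Depdc1b, a regulator of adhesion and mitotic entry, had the highest ratio of the list at 8.61 (7.49 to 9.90). Fam83d, which brings a kinase to the spindle, and Troap, a spindle-associated protein, followed at 6.88 and 6.77. Prc1, which crosslinks the central spindle, stood at 482, 225, 292 and 307 CPM against 3.39, 30.2, 48.8 and 27.2 CPM. The lowest of the list were the centriole builder Sass6 at 1.81 and the checkpoint protein Bub3 at 1.66 (1.47 to 1.86).

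All 12 compared mitotic kinesins, motors that move along microtubules, were 2-fold or more higher, with a median ratio of 4.60. Kif23, a motor of the central spindle needed for cytokinesis, stood at 204, 238, 220 and 290 CPM in cycling nuclei across libraries 1 to 4, beside 6.65, 37.7, 34.0 and 27.8 CPM in the others. The 2 sets did not overlap, and the pooled ratio was 6.97 (6.43 to 7.56). Kif2c, which takes microtubules apart at kinetochores, reached 6.26, Kif14, another cytokinesis motor, 6.22 and Kif20b 5.06. Kif15, a helper of spindle assembly, and Kif24, a centriole kinesin, were the lowest at 3.07 and 2.02.

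Of 31 compared cyclins and cell cycle kinases 23 were 2-fold or more higher, with a median ratio of 3.43. Ccnb1, the cyclin that drives entry into mitosis, stood at 58.4, 70.4, 94.4 and 84.7 CPM against 1.06, 9.44, 15.01 and 6.96 CPM in libraries 1 to 4, a pooled ratio of 6.78 (5.96 to 7.73). Ccnf, the centrosomal kinase Nek2 and Plk1 had ratios of 6.47, 6.45 and 6.22. Cdk1, the kinase that cyclin B activates, reached 4.47 (4.07 to 4.91). The S phase entry cyclins Ccne1 and Ccne2 were at the other end, with ratios of 0.921 (0.691 to 1.21) and 0.899 (0.779 to 1.04). Ccne2 stood at 14.6, 10.1, 35.8 and 40.2 CPM in cycling and at 7.57, 17.8, 40.6 and 38.5 CPM in other nuclei, so the 2 sets overlapped.

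Kinetochores, which tie chromosomes to the spindle, gave 21 of 25 compared genes at 2-fold or more, with a median ratio of 3.41. Sgo1 and Sgo2, guardians of sister chromatid cohesion, had ratios of 5.82 and 5.50. Bub1b, a kinase-like protein of the spindle checkpoint, stood at 204, 195, 169 and 197 CPM against 2.08, 32.6, 32.3 and 18.3 CPM, a ratio of 5.79 (5.29 to 6.34). Cenpa, the histone that marks centromeres, reached 5.13 (4.24 to 6.21), and the lowest were Kntc1 at 1.79 and Cenph at 1.67. Among chromosome structure genes 12 of 18 passed 2-fold, with a median of 2.51. Securin (Pttg1) and separase (Espl1), the pair that controls sister separation, led at 4.95 and 4.33, followed by the condensin subunits Ncapd2 at 3.66 and Ncapg at 3.45. Hmgb1 and H2az1, general chromatin proteins, were at 1.25 (0.988 to 1.56) and 1.203 (0.785 to 1.80).

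DNA replication genes differed far less in the pool, where library 3 holds most cycling nuclei. Only 3 of 39 compared genes were 2-fold or more higher, with a median ratio of 1.28. By library, the summed ratio of the list was 5.28, 1.52, 1.225 and 1.75 in libraries 1 to 4. In library 4 it was 1.43 in the fibroblast, 2.49 in the macrophage, 2.30 in the endothelial and 3.70 in the mural class. Ticrr and Dbf4, which help fire replication origins, had ratios of 3.17 (2.83 to 3.54) and 2.80 (1.98 to 3.94), and Gins3 of the replicative helicase 2.19. Mcm10 was next at 1.77 (1.57 to 2.00). The helicase subunit Mcm2 stood at 0, 16.8, 29.7 and 33.9 CPM in cycling nuclei and at 4.84, 22.3, 34.5 and 27.1 CPM in other nuclei across the 4 libraries. The cycling nuclei of library 4 were higher and those of library 3 lower, with no interval given by library. Libraries 1 and 2, with 76716 and 313741 UMIs in cycling nuclei, were too shallow to show a difference at these levels. The pooled ratio was 0.899, with an interval that includes 1 (0.768 to 1.05). Cdc6, which loads the helicase, was at 0.945 (0.809 to 1.10), and Pcna at 1.24 (1.15 to 1.35) with 29.2, 47.0, 117 and 139 CPM against 3.66, 37.6, 100 and 79.1 CPM. The list's sum depended on the comparison nuclei. Its ratio was 1.30 against all other nuclei and 1.72 against nuclei with 0 marker UMIs, while the spindle list moved from 4.36 to 7.26.

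Genes that mend DNA during S phase lay between, with 7 of 18 at 2-fold or more and a median of 1.85. The repair polymerase Polq led at 3.08 (2.80 to 3.37), then Rad51b at 2.88, Bard1, the partner of BRCA1, at 2.81 and Fancd2 of the Fanconi pathway at 2.26. Palb2, the partner of BRCA2, was near the low end at 1.34 (1.14 to 1.57). Of 23 nucleotide synthesis genes, 2 were at 2-fold or more: Rrm2, the regulated subunit of ribonucleotide reductase, at 3.48 (2.94 to 4.11) and thymidine kinase Tk1 at 2.00 (1.80 to 2.22). Rrm1 and Dut followed at 1.75 and 1.59, and Adsl and Shmt1 of purine and folate metabolism were at 0.986 and 0.953.

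**Figure D2:**
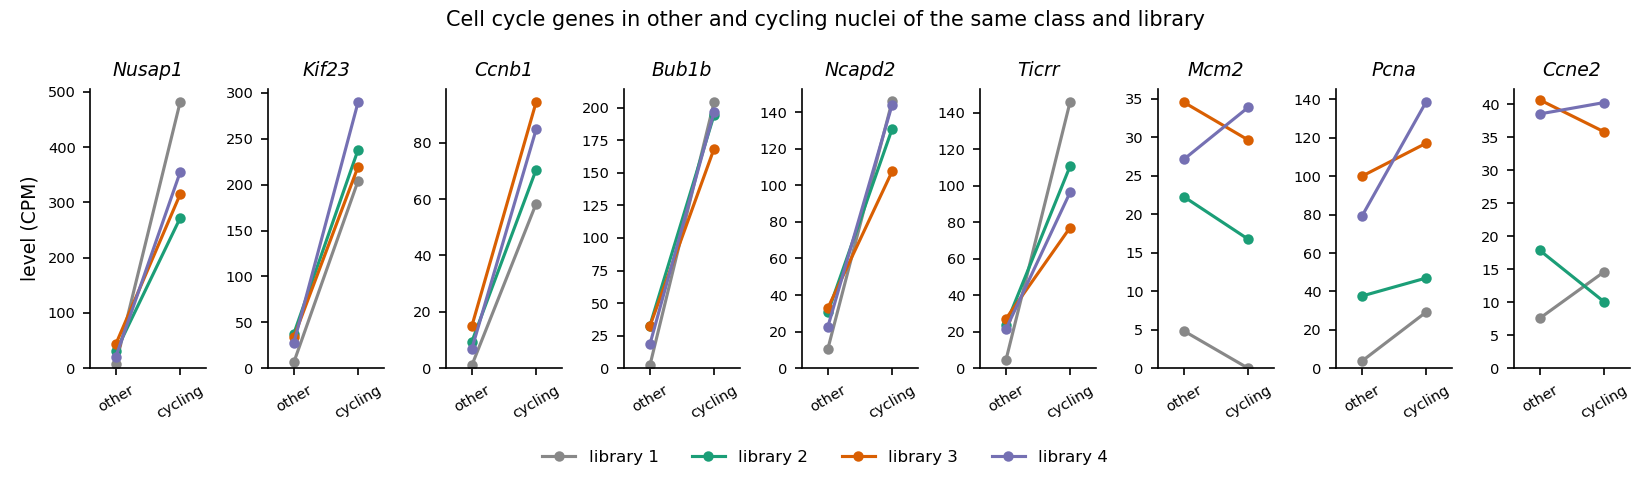
Levels (CPM, vertical axes from 0) of 9 cell cycle genes in other nuclei of the same class and library and in cycling nuclei, 1 line a library. Nusap1, Kif23, Ccnb1, Bub1b, Ncapd2 and Ticrr are higher in the cycling nuclei of each library, whereas Mcm2 and Ccne2 cross. Library 1 rests on 38 cycling nuclei.

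Promoters are shown for 4 of these genes because the late genes moved together while the replication genes moved less in the pool. Late genes are known to carry a CHR element (TTTGAA), often with CCAAT boxes, and replication genes E2F sites (TTTNGCGC). Windows of 250 bases before to 50 bases after the start of a gene were searched on both strands in the RefSeq promoter table of the assembly GRCr8. Among 10205 promoters of the compared genes, 11.8% held a CHR element, 37.3% a CCAAT box, 4.79% both and 2.28% an E2F site. Of 97 late genes (cyclins and kinases, kinetochore, kinesins, spindle and cytokinesis), 81 matched a promoter, and 56.8% of those held a CHR element, 64.2% a CCAAT box, 39.5% both and 8.64% an E2F site. Of 40 replication genes 36 matched, with 16.7, 61.1, 2.78 and 44.4%. The CCAAT box was the most frequent of the 3 in both sets. Between the other two, the CHR element had the larger share in late promoters and the E2F string in replication promoters. These are matches of letters only. The sequences run 5′ to 3′ from 250 bases before to 30 after the start, with any of the 3 motifs in capitals. Ckap5, Nusap1 and Prc1 are the late genes with most UMIs in cycling nuclei among those that held a CHR element and 2 CCAAT boxes and passed 2-fold in each library, and Pola1 is the replication gene with most UMIs among those that held an E2F site. Ckap5 lies at chr3:97946798-97947077 on the plus strand, Nusap1 at chr3:127057045-127057324 (plus), Prc1 at chr1:143659231-143659510 (plus) and Pola1 at chrX:62342326-62342605 (minus).
Ckap5: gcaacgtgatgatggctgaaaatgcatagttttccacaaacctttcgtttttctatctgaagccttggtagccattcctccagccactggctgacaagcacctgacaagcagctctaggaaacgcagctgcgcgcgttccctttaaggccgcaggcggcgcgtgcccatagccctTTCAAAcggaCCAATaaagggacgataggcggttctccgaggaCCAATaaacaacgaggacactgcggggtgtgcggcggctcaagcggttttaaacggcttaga
Nusap1: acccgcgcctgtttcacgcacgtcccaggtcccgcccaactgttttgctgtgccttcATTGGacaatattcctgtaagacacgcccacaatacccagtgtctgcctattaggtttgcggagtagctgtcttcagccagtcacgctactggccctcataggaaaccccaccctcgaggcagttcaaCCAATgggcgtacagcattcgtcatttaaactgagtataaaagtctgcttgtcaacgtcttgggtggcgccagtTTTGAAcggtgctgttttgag
Prc1: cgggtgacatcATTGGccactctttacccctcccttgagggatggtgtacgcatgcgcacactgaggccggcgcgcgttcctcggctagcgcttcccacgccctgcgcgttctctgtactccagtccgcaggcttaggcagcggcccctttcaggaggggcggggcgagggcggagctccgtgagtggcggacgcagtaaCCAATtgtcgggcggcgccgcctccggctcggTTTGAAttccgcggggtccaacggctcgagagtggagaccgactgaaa
Pola1: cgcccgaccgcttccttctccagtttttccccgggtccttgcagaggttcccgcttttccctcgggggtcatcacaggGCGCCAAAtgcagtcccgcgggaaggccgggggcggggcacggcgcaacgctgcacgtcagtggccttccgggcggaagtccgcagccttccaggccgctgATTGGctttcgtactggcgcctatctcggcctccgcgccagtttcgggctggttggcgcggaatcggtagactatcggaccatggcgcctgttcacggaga
Ckap5, a microtubule polymerase, had a pooled ratio of 2.56 (2.43 to 2.70), Nusap1 8.03 and Prc1 6.56 (6.11 to 7.05). Pola1, the catalytic subunit of the polymerase that primes replication, stood at 511, 342, 319 and 319 CPM in cycling nuclei and at 107, 216, 254 and 211 CPM in other nuclei, a ratio of 1.31 (1.25 to 1.38). Every library had the higher Pola1 level in its cycling nuclei, by less than 2-fold in libraries 2, 3 and 4.

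Genes of the exit from rest differed little between the 2 sets. None of 16 G1 entry genes was 2-fold higher or lower, beside 1.91% and 4.24% of all genes. With so few genes these counts say little. By class, their sum in cycling nuclei was 1.12 times that of other nuclei in the fibroblast, 1.13 in the macrophage and 1.29 in the mural class. Each of these intervals lay above 1. In the endothelial class the sum was 1.02, with an interval that includes 1. The median ratio of the 16 genes was 1.03, beside 0.984 for all genes. The D-type cyclin Ccnd2 had the lowest ratio, 0.746 (0.645 to 0.858), and was lower in the cycling nuclei of all 4 libraries, at 29.2, 23.5, 34.7 and 28.6 CPM against 36.7, 27.3, 47.3 and 35.6. Fos, an immediate early factor, was at 0.783 (0.643 to 0.949). Skp2, which marks cell cycle brakes for destruction, was at 1.44 (1.23 to 1.68), Id3, an inhibitor of differentiation, at 1.39 (1.29 to 1.48), E2f2 at 1.30 and Mycn at 1.59 from only 10 UMIs (0.706 to 3.28).

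Of 22 compared brakes of the cycle 0 were 2-fold or more lower, beside 4.24% of all genes, and 2 were higher (9.09%), beside 1.91%. With so few genes these counts say little. The brakes had a median ratio of 0.783. By class, their sum was 0.832 in the fibroblast, 1.02 in the macrophage, 0.961 in the endothelial and 0.971 in the mural class, and the interval lay below 1 in the fibroblast class alone. Cdkn2c, an inhibitor of CDK4 and CDK6, was higher in all 4 libraries, at 73.0, 16.8, 37.3 and 52.9 CPM against 4.43, 8.84, 14.0 and 10.6 CPM, a ratio of 2.94 (2.51 to 3.45). Cdkn2b, its relative, had 32 UMIs and a ratio of 2.18 (1.37 to 3.40). The pocket protein Rbl1 was at 1.65 and Cdkn1b at 1.27. Btg2, an antiproliferative gene, was lower in every library, at 29.2, 33.5, 38.9 and 36.0 CPM against 47.4, 63.1, 62.9 and 70.4 CPM, a ratio of 0.598 (0.524 to 0.681). Cdkn1c stood at 0.570 from 9 UMIs, with an interval that reaches 1.15.

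**Figure D3:**
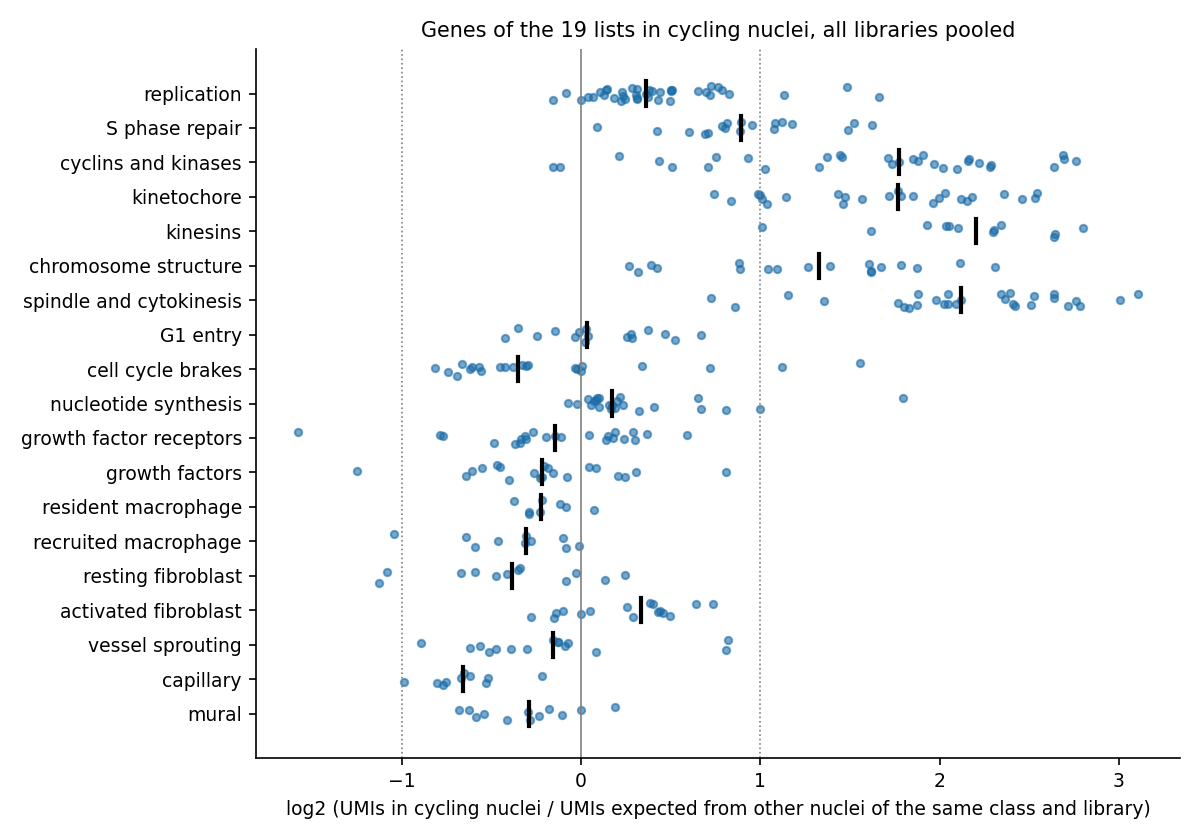
Log2 ratio of UMIs in cycling nuclei to UMIs expected from other nuclei of the same class and library (horizontal axis) for the compared genes of 19 lists; each point is a gene, black bars are list medians and dotted lines mark 2-fold. The points of the kinesin and spindle lists lie mostly beyond 2-fold, those of replication mostly within it, and the median of the brakes is below 0; Areg, with 0 UMIs in cycling nuclei, is not drawn.

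Of all 14258 genes, 161 (1.13%) were 2-fold or more higher in all 4 libraries, and 62 of these belonged to no list and had a gene name rather than a contig name or LOC number. The highest ratios were those of Pif1, a DNA helicase, at 10.6 (7.89 to 14.3), Psrc1, a spindle protein, at 8.08, Arhgef39, a guanine nucleotide exchange factor, at 7.79, Pimreg, a mitotic regulator, at 7.13, Prr11 at 7.06 and Ankle1 at 6.41. Psrc1 had 94 of its 180 UMIs in cycling nuclei, so it passed the filter of 100 UMIs only with them. Dlgap5, which stabilises spindle microtubules, had the most UMIs of the 15 highest, 1373, at 248, 181, 199 and 216 CPM against 9.66, 29.2, 39.3 and 21.9 CPM, a ratio of 5.56 (5.12 to 6.04). Gtse1, Parpbp, Cdkn3, Oip5, Sapcd2, Knstrn and Spag5 had ratios from 4.75 to 5.77, Spag5 being a symbol that 2 features share. Scg5, a secretory granule chaperone, was at 6.11 (3.68 to 10.1), with 32 of its 115 UMIs in cycling nuclei, so it too passed the filter only with them. Pimreg, Oip5 and Scg5 each had only 1 UMI in the cycling nuclei of library 1.

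In all 4 libraries 167 of 14258 genes (1.17%) were 2-fold or more lower. For scarce genes libraries 1 and 2 add little, since their cycling nuclei held only 76716 and 313741 UMIs. A gene near 1 CPM would mostly show 0 UMIs there without any difference. Of these, 127 belonged to no list and had a gene name rather than a contig name or LOC number. The lowest ratios belonged to scarce genes: Atp1b2, Extl1, Fam205a, Sema3b and Tinag had 0 UMIs in cycling nuclei, Fgf14, Klhl38 and Plxnb1 had 1 and Fgf16 had 2. Chosen after their values were seen, because they had the highest CPM in other nuclei among genes with a ratio of 0.5 or less, were Dmd, Ryr2, Xirp2 and Sorbs2. Dmd, which codes for dystrophin, had 1259 CPM in other nuclei and a ratio of 0.369, the calcium release channel Ryr2 884 CPM and 0.376, Xirp2 of the intercalated disc 659 CPM and 0.388, and Sorbs2 527 CPM and 0.401. Ryr2 is also 1 of the cardiomyocyte markers whose sums are given above for each class.

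Late genes were higher in the cycling nuclei of all 4 classes. Of the genes compared in a class, 98 of 172 cell cycle list genes were 2-fold or more higher in the fibroblast class (background 1.72% of 12386), 114 of 161 in the macrophage class (2.72% of 11052), 134 of 166 in the endothelial class (4.18% of 12235) and 114 of 140 in the mural class (7.21% of 10981), with 0 lower in each. Among those with at least 100 UMIs in the other nuclei of the class alone, the counts were 95 of 168, 112 of 159, 133 of 165 and 104 of 130. Lower genes made up 3.37, 3.89, 7.38 and 11.3% of all genes compared. The spindle list summed to 4922 CPM in cycling fibroblast-classed nuclei of library 3 and to 3192, 4247 and 3756 CPM in the macrophage, endothelial and mural classes, against 1281, 784, 684 and 693 CPM in the other nuclei. In library 4 the 4 sums were 4956, 4826, 5878 and 3777 CPM in cycling and 950, 549, 479 and 374 CPM in other nuclei. Ratios in fibroblast-classed nuclei were therefore lower, at 3.84 and 5.22, than in endothelial-classed ones, at 6.21 and 12.3. The non-cycling fibroblast-classed nuclei held more of these genes. Replication genes followed the same order, at 1.14 (1.12 to 1.17) in the fibroblast class of library 3 and 1.92 (1.79 to 2.06) in the endothelial class.

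**Figure D4:**
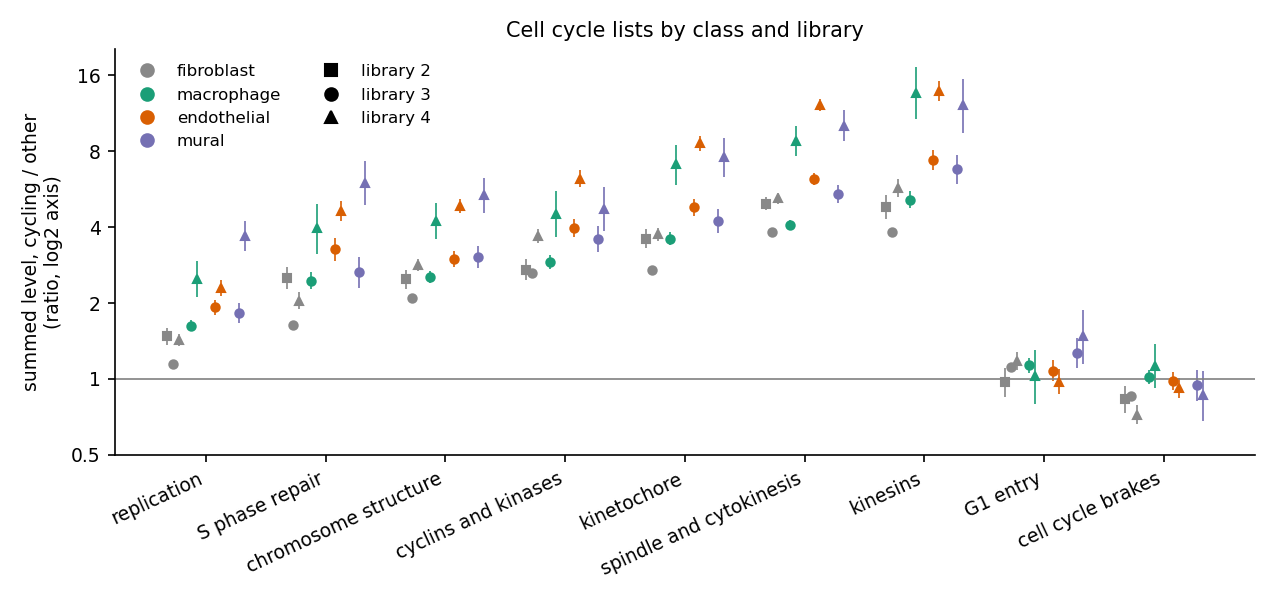
Ratio of the summed level of a list in cycling nuclei to that in other nuclei of the same class and library (vertical axis, log2 scale) for 9 lists, with 95% intervals; colours are classes and symbols libraries with at least 15 cycling nuclei of that class. All ratios of the 7 cell cycle lists lie above 1, from 1.14 for replication in the fibroblast class of library 3 to 13.9 for kinesins in the endothelial class of library 4, while G1 entry lies between 0.971 and 1.48 and the brakes between 0.721 and 1.13.

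In the fibroblast class, genes of activated fibroblasts were higher and genes of resting ones lower in cycling nuclei, by less than 2-fold for most. The activated list summed to 1.58 (1.52 to 1.65), 1.21 (1.19 to 1.22) and 1.36 times the other nuclei in libraries 2, 3 and 4, and the resting list to 0.801, 0.838 and 0.609. Adam12, a membrane protease of activated stroma, stood at 1457 against 935 CPM in library 3 and at 1602 against 842 CPM in library 4. Runx1, a transcription factor of injury, stood at 581 against 479 and at 757 against 377 CPM, and Postn, a matrix protein of healing scars, at 867 against 687 and 1026 against 638 CPM. Not all members were higher. Fn1, fibronectin, was at 0.809 (0.784 to 0.835) and 0.922 (0.830 to 1.02), and Timp1 at 0.864 (0.831 to 0.898) and 0.974. Of the resting genes, the lipid transporter Abca8a stood at 47.1 against 101 CPM in library 3 and 31.9 against 169 CPM in library 4, and Dcn at 646 against 871 and 475 against 978 CPM, whereas the epicardium-derived fibroblast factor Tcf21 was at 1.07 (0.898 to 1.27) and 1.11 (0.686 to 1.73).

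In the macrophage class, genes of recruited macrophages were lower in sum in cycling nuclei. Their sum was 0.678 (0.661 to 0.695) of that in other macrophage-classed nuclei in library 3 and 0.476 (0.424 to 0.532) in library 4, the latter from 15 nuclei. Spp1, osteopontin, stood at 3945 against 6523 CPM in library 3 and at 1347 against 5678 CPM in library 4. Gpnmb, a glycoprotein of lipid-laden macrophages, stood at 1083 against 1556 and 512 against 1187 CPM. Not every member was lower. Itga4 was at 1.03 (0.872 to 1.21) in library 3 and 2.655 (1.80 to 3.79) in library 4, where 22 of its 33 UMIs came from 1 nucleus. The resident list, which includes a class gene, Mrc1, was at 1.12 (1.07 to 1.19) and 0.979 (0.803 to 1.18). Cd163 was at 1.27 (1.06 to 1.52) and 1.71 (1.04 to 2.65). Lyve1, a hyaluronan receptor, was at 1.63 (1.34 to 1.96) in library 3 and 0.533 (0.109 to 1.59) in library 4. Apart from Mrc1, the other members were not higher in both libraries. F13a1 was at 1.08 (0.945 to 1.24) and 0.426 (0.203 to 0.788), Folr2 at 0.965 and 0.997 and Maf at 0.834 and 1.63. Spp1 was also lower in cycling nuclei of the fibroblast class, at 2098 against 3048 CPM in library 3 and 633 against 1003 CPM in library 4, and of the endothelial class, at 2506 against 3562 and 918 against 1098 CPM. The recruited list was likewise below 1 in the fibroblast class, at 0.697, 0.775 and 0.893 in libraries 2 to 4, and in the endothelial class of library 3, at 0.782, but not in that of library 4, at 1.16.

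In the endothelial class, cycling nuclei held less of the capillary genes and more Nrg1. The capillary list summed to 0.668 (0.597 to 0.746) of the other endothelial-classed nuclei in library 3 and to 0.459 (0.406 to 0.519) in library 4. The capillary list was below 1 in the other classes too, at 0.653 and 0.560 in the fibroblast, 0.831 and 0.305 in the macrophage and 0.615 and 0.792 in the mural class of libraries 3 and 4. In the endothelial class Fabp4, a fatty acid carrier, stood at 338 against 513 and at 293 against 817 CPM, and the water channel Aqp1 at 143 against 237 and at 105 against 322 CPM. Nrg1, neuregulin, a growth factor for cardiomyocytes, stood at 407 against 137 CPM in library 3, a ratio of 2.97 (2.48 to 3.53), and at 677 against 176 CPM in library 4, a ratio of 3.85 (3.31 to 4.46). Its UMIs came from 17 of 95 and 17 of 51 nuclei, with 48 and 36 in the single highest ones, and it was seen in 10.6 and 9.85% of the other endothelial-classed nuclei. In the pool of all classes Nrg1 was at 0.683, since it was lower in cycling nuclei of the fibroblast class at 0.192 and the macrophage class at 0.346. Angpt2, a vessel destabiliser, was at 1.63 (1.03 to 2.46) and 1.87 (1.32 to 2.56), and Vegfc, a lymphatic growth factor, at 0.559 (0.396 to 0.766) and 0.377 (0.246 to 0.553).

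Lists that mark the state of a cell type were read over all classes together, beside 1.91% of all genes higher and 4.24% lower. Activated fibroblast genes had 0 of 16 higher with a median of 1.26, and resting ones 2 of 12 lower with a median of 0.767, the sodium channel Scn7a at 0.458 and Abca8a at 0.473. Recruited macrophage genes had 1 of 10 lower, arginase (Arg1) at 0.486, and a median of 0.807, and resident ones 0 of 8 past 2-fold and 0.857. Capillary (10 genes), vessel sprouting (15) and mural genes (12) had 0 past 2-fold and medians of 0.634, 0.897 and 0.818. Esm1, a gene of sprouting tip cells, was at 1.77, and at 0.877 without library 3.

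Growth factors and their receptors were compared in the same way. Of 23 receptors 0 were 2-fold higher and 1 was lower, the lymphatic receptor Flt4 at 0.336 (0.243 to 0.453), a share of 4.35% beside 4.24% of all genes. The insulin receptor Insr was at 0.580, while the fibroblast growth factor receptor Fgfr2 was at 1.51, Egfr at 1.29 (1.24 to 1.35) and Axl at 1.24. Of 21 compared growth factors, 2 were lower, Fgf1 at 0.422 (0.369 to 0.480) and Areg with 0 UMIs, and Angpt2 was highest at 1.75 (1.59 to 1.93). In the mural class Egfr stood at 188 against 108 CPM in library 3 and 313 against 76.0 CPM in library 4, and Axl at 236 against 153 and 403 against 116 CPM. The activated fibroblast list was also higher in these nuclei, at 1.77 and 3.98 times the others, and its part in the receptor values was not tested.

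Cycling nuclei were also grouped by their marker share, which comes from the rule's own genes, so the levels of the late genes across these groups are a description and support nothing. Cycling nuclei with 0.15 to 0.2% of their UMIs in the 6 markers summed to 8064 CPM over the 4 late lists, those with 0.2 to 0.3% to 10521, those with 0.3 to 0.5% to 14836 and the 116 above 0.5% to 19890 CPM. Replication genes went from 2779 and 2802 to 2604 and 2185 CPM over the same steps. In the fibroblast class of library 3 alone, late genes stood at 8545, 10990, 15554 and 20431 CPM and replication genes at 2925, 2840, 2495 and 2220 CPM, and in that of library 4 replication genes stood at 3073, 3079, 2753 and 1779 CPM, the last value from 9 nuclei. The groups are ranges, not cell types. The 32067 nuclei with 0 marker UMIs held 1287 CPM of the late lists and 980 CPM of replication genes.

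**Figure D5:**
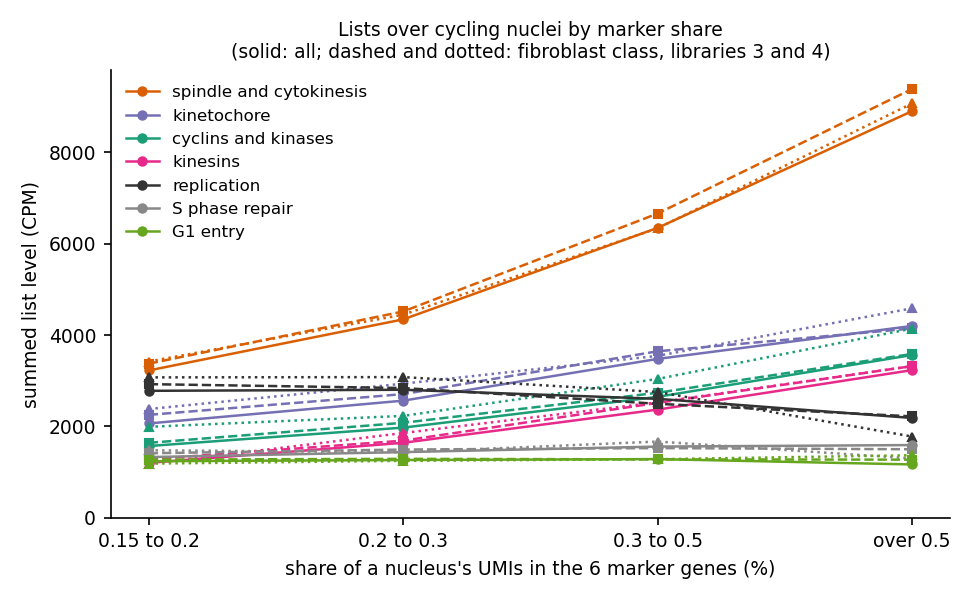
Summed level of 7 lists (CPM, vertical axis from 0) in cycling nuclei grouped by the share of their UMIs in the 6 marker genes; solid lines are all cycling nuclei, dashed and dotted lines the fibroblast class of libraries 3 and 4. The spindle list is higher at higher marker shares, from 3225 to 8898 CPM, and replication goes from 2779 to 2185 CPM over all cycling nuclei.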

How the data were processed

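The authors deposited raw UMI counts as 1 matrix of 32623 genes and 48637 barcodes. Per the file headers the matrix came from cellranger 5.0.1, whereas Cell Ranger 6.1.1, Seurat and rn7 stand in the submitters' processing notes, so the version and build are not settled. Nuclei were isolated with a Dounce homogenizer, per the labels' protocols. Depth was 17972019, 14126043, 51671204 and 23618296 UMIs in kept nuclei of libraries 1 to 4. Members, lists and marker-picked sets were chosen with earlier results of these data known.

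From the counts, shares were given with Clopper-Pearson intervals. A gene's ratio is its UMIs in cycling nuclei over those expected from other nuclei of the same class and library at equal total UMIs, with a conditional binomial interval, and CPM of other nuclei are weighted the same way. Genes with at least 100 UMIs over classed nuclei were compared, the 6 rule genes left out, and 2-fold was the threshold. The steps were tested on simulated data. Of 369 list genes 357 were matched (3 under an older symbol), and the rest are not analysed here. Doublets were not removed. scrublet in scanpy 1.11.5 scored them, and removal of the highest scores at 0.8% per 1000 nuclei is an alternative. Named genes are the 4 highest and 2 lowest of each list, and outside the lists the 15 highest and 10 lowest past 2-fold in all 4 libraries. The 6 highest and 4 lowest of each class were computed too. Some genes that this rule picks are not reported here. Further genes illustrate a list or show a promoter and were chosen after their values were seen. Genes that set a class (Pdgfra, Pdgfrb, Mrc1 and the like) are not read as findings within it.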

Additional observations from a re-analysis of the deposited data

Results flagged for a closer look

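Growth factor genes pointed in different directions between classes in the 2 libraries with enough cycling nuclei, and the difference between classes was not tested. Over all libraries their sum in cycling nuclei was 1.12 times that of other nuclei in the endothelial class, 0.830 in the macrophage class and 0.769 in the mural class. In libraries 3 and 4 the ratios were 1.15 and 1.18, 0.867 and 0.537, and 0.805 and 0.724. Without Nrg1, the endothelial ratios were 0.958 (0.868 to 1.05) and 0.860 (0.773 to 0.953). Growth factor receptors summed to 1.25 in the mural class and to 0.948 in the endothelial class, and in libraries 3 and 4 to 1.14 and 1.60 against 0.927 and 0.920. Flt1, a gene that sets the endothelial class, and Pdgfrb, a gene that sets the mural class, are in the receptor list.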

How the results depend on the processing

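Shares moved with the marker rule. Asking 2 marker UMIs gave 1.65, 9.83 and 3.70% in libraries 2, 3 and 4, asking 5 gave 0.438, 6.18 and 2.59%, and a share of at least 0.3% gave 0.277, 0.260, 2.71 and 1.17% in libraries 1 to 4. Nuclei of at least 1000 UMIs gave 3.195% in library 2 and 8.74% in library 3, and thinned nuclei 4.19, 9.78 and 3.86% in libraries 2, 3 and 4. The fibroblast class made up 51.3% of cycling nuclei with 2 marker UMIs and 70.4% with 5, the macrophage class 16.4 and 11.04%, and the mural class 3.37% with 5. With a clear class lead required, the fibroblast, macrophage, endothelial and mural classes made up 50.7, 9.68, 6.55 and 1.95%. Without library 3 they made up 53.8, 7.31, 20.2 and 9.06%, and without library 4 the endothelial class 7.57%. Genes 2-fold or more higher and lower numbered 1607 and 6266 with no filter on genes, and 621 and 1379 without library 3, which holds most cycling nuclei. The higher genes numbered 481 against other nuclei without a marker UMI, a comparison added after seeing the data, and the lower genes 293 among those of at least 500 UMIs. Without library 3 the ratio fell to 0.858 for Pdgfd and 0.877 for Esm1 and rose to 1.07 for Timp1, past 1 in each case. The cause of these changes was not tested. No list's summed ratio over all classes crossed 1 under the 9 alternatives that change the nuclei, the classes or the scaling for which it was computed. Sizes did change. Of the list ratios under these alternatives, 89 lay outside the interval of the main setting and 91 within it. Without library 3 the ratio went from 2.59 to 3.76 for the 7 cell cycle lists and from 0.828 to 0.687 for resting fibroblast genes. Removing the highest doublet scores, 208 cycling nuclei among them, gave 299 higher and 769 lower genes. No paired analysis was possible because each group has 1 library and no suffix is tied to a sample. Depth limits library 2 most.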

Other observations

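Nuclei picked by immune or lymphatic markers also met the rule, though most of these also led in 1 of the 4 class sums. In library 3 the rule was met by 43 of 420 nuclei with 2 dendritic markers (10.2%, 7.51 to 13.5%), 37 of 605 with 2 neutrophil markers (6.12%, 4.34 to 8.33%), 27 of 408 with 2 T or NK cell markers (6.62%, 4.41 to 9.48%), 5 of 90 with 2 B cell markers and 19 of 481 with 2 lymphatic endothelial markers (3.95%). Of these cycling nuclei only 5, 4, 5, 1 and 2, in that order, had no class. The dendritic markers include Zbtb46, which stood at 210 CPM in non-cycling endothelial-classed nuclei and at 41.6 CPM in macrophage-classed ones. Mature neutrophils are not known to divide, and these sets are deep, with a median of 5281 UMIs in the dendritic and 3074 in the neutrophil set of library 3. In library 4 the shares were 3.78, 5.08, 1.41, 2.50 and 1.98%.

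Single genes had high or low ratios within a class, the high ones not in 1 class alone. Neil3, a DNA glycosylase, had a ratio of 6.66 (5.02 to 8.76) in the macrophage and 7.81 (4.70 to 12.6) in the mural class. In the endothelial class Prr11 had a ratio of 19.7 (14.2 to 27.1) and Parpbp one of 14.6. Prr11 was at 6.27, 8.53 and 12.7 in the fibroblast, macrophage and mural classes, and Parpbp at 4.87, 6.20 and 7.70. In the fibroblast class the glutamate receptor Grik2 was at 0.158 (0.0892 to 0.259). The adhesion molecule Chl1 was at 0.0558 (0.00139 to 0.321) there, from 1 UMI in cycling nuclei. Of the barcodes outside the filters, 2 of 1161 in library 1 and 1 of 79 in library 3 met the marker rule, and 0 in libraries 2 and 4.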
